A study of Mus musculus with 20 samples.

Results

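Rnf19b, Neurl3, Tbc1d4, Arid5a, Spsb1 and Tnni1 are 6 protein-coding genes, of 41115 genes counted, that were picked because their messenger RNA was high in stimulated relative to untreated spleen cells of the mouse and because that ratio grew or persisted to 48 h. They were thus chosen by the stimulated over untreated ratio of these libraries, and their levels and ratios are given below as a description with no test. The stimulated arm received LPS (lipopolysaccharide, a bacterial ligand of Toll-like receptor 4), IL4 (interleukin 4) and TGFb (transforming growth factor beta), a mixture that the design text calls an AID stimulation cocktail, AID being the enzyme that starts antibody class switching in B cells. The untreated arm received none of these. Each arm was sampled at 0, 15 and 30 min and at 1, 2, 3, 6, 12, 24 and 48 h, with 1 poly-A library per arm and time, so 10 stimulated and 10 untreated libraries. The design text gives 1 mouse per arm. The labels give no strain, age or sex and do not say whether animals or isolated cells were exposed. With 1 animal per arm, a difference between the animals and an effect of the cocktail cannot be told apart.

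Each of the 6 genes belongs to a well known family, and none of the families is specific to B cells. Rnf19b encodes a RING-between-RING (RBR) ubiquitin ligase first described in cytotoxic lymphocytes, Neurl3 encodes a ubiquitin ligase of the Neuralized family, and Spsb1 encodes a SOCS-box protein that brings substrates such as inducible nitric oxide synthase to a cullin 5 ubiquitin ligase. Tbc1d4 (AS160) encodes a GTPase-activating protein that holds Rab proteins inactive until Akt phosphorylates it, best known for its part in insulin-stimulated glucose transport in muscle and fat. Arid5a encodes a protein with an AT-rich interaction domain that also binds and stabilises messenger RNAs such as those of Il6, Stat3 and Tnfrsf4. Tnni1 encodes the troponin I of slow skeletal muscle, the inhibitory subunit of the calcium switch on actin filaments.

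Totals per library ran from 36873155 to 60918651 counts. The libraries carried the markers of B cells at every time, with 8 of 8 detected above 1 CPM (each count relative to the total of its library, scaled alike in all libraries) and a summed level of 1372 to 2610 CPM in stimulated and 1972 to 2655 CPM in untreated libraries. Other cells that a spleen or its surroundings could add were looked for by their markers. T cell markers summed to 3.46 to 13.0 CPM in stimulated and 3.38 to 12.6 CPM in untreated libraries. NK cell markers summed to 4.81 to 19.0 CPM in stimulated and 6.19 to 16.7 CPM in untreated libraries. Of the 6 NK cell markers Prf1 alone reached 1 CPM, and Klrd1 and Gzma had 0 counts in all 20 libraries. No neutrophil marker reached 1 CPM, and S100a8 and S100a9 had 0 counts in all 20 libraries. Macrophage markers summed to 37.9 to 98.9 CPM in stimulated and 24.0 to 66.6 CPM in untreated libraries, and dendritic cell markers to 30.2 to 66.5 CPM in stimulated and 17.97 to 31.7 CPM in untreated libraries. In stimulated libraries both sums were highest at 48 h, where the macrophage sum was 98.9 CPM, against 39.6 CPM in the untreated library, and the dendritic cell sum 66.5, against 22.3 CPM. The stimulated levels of 4 of the 6 genes were highest at the same time. At 48 h Emr1 had 36.3 CPM in the stimulated and 1.31 CPM in the untreated library, Csf1r 42.9 and 19.8 CPM, Flt3 33.0 and 11.2 CPM and Zbtb46 32.1 and 9.08 CPM, while the monocyte genes Cd14 and Lyz2 stayed under 0.1 CPM in all libraries. Some other markers of both lists did not follow, and Cd68 had 18.5 CPM in the stimulated and 17.9 CPM in the untreated library at 48 h. Xcr1 (0.905 and 1.62 CPM), Siglech (0.358 and 0.419 CPM) and Ly6c2 (0.0189 and 0.0571 CPM) were lower in the stimulated library there. Itgam, Mrc1 and Itgax were higher in it, at under 1 CPM. The part of these cells in the results was not tested.

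The genes lie at 5 places in the genome (GRCm38, GENCODE vM21). Neurl3 (chr1:36264597-36274679, minus strand) and Arid5a (chr1:36307733-36324029, plus strand) are neighbours that point away from each other, with 33.1 kb between the gene bodies and no other protein-coding gene of the annotation in that gap. Tnni1 (chr1:135779434-135810989, plus strand) lies elsewhere on the same chromosome. Rnf19b (chr4:129058271-129085886, plus strand) and Spsb1 (chr4:149896283-149955043, minus strand) lie far apart on chromosome 4, and Tbc1d4 (chr14:101442360-101609191, minus strand) is on chromosome 14. A processed pseudogene within Tbc1d4, Gm34417, received 6 counts over the 20 libraries. A transcript antisense to Spsb1, Gm13070, was not counted separately, and because the strand setting of the counting is not given in the sources used here, reads from it cannot be told apart from Spsb1 reads.

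The sequence before the RefSeq transcription start is shown for 4 genes, the 2 that changed earliest (Rnf19b and Spsb1) and the 2 neighbours (Neurl3 and Arid5a). The stretches come from the RefSeq table for GRCm38.p6, which gave a start for 6 of 6 genes, and are written on the strand of the gene, 5′ to 3′, up to the RefSeq start or to the first annotated exon base of the gene where that comes sooner. Capitals mark GGGCGG, the core of GC boxes, and TATAAA, the core of TATA boxes, on either strand. The Neurl3 stretch lies inside the annotated gene body given above, because the RefSeq start is downstream of the annotated start of the gene.
Rnf19b, chr4:129057894-129058143, plus strand: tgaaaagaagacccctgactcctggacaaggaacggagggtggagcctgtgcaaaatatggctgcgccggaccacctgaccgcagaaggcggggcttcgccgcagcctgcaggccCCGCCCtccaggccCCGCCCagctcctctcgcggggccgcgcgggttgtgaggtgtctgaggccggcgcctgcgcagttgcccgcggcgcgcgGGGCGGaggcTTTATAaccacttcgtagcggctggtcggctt
Spsb1, chr4:149955044-149955256, minus strand: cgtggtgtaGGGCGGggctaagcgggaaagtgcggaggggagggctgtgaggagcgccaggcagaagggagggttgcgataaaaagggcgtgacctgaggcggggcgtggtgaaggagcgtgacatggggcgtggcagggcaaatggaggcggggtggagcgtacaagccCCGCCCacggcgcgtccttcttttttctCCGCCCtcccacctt
Neurl3, chr1:36273584-36273675, minus strand: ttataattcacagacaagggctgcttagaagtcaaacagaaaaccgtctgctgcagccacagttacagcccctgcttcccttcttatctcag
Arid5a, chr1:36307483-36307732, plus strand: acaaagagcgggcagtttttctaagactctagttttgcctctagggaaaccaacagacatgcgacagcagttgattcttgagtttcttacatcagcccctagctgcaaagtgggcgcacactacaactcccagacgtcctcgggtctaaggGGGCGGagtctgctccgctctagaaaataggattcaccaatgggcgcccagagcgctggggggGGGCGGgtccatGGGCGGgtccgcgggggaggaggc

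Over the 250 bases before the RefSeq start, GGGCGG on either strand was present for Rnf19b, Tbc1d4, Arid5a and Spsb1, 4 of 6 genes, against 32.74% of 32851 such windows of all genes. Those 4 windows held 69.2% G or C for Rnf19b, 64.4% for Spsb1, 58% for Arid5a and 54.8% for Tbc1d4, against a median of 52.4% over all windows. Without GGGCGG, the windows of Tnni1 held 58.4% and 60.4% and that of Neurl3 50.4%. TATAAA was present for Neurl3, on the strand of the gene, and for Rnf19b, on the other strand, against 12.37% of all windows. The NF-kB consensus was matched for Neurl3 only, on the strand opposite to the gene, against 7.251% of all windows. That match and the TATAAA of Neurl3 lie past the first annotated exon base of the gene and are not printed. The windows of Neurl3 and Tnni1 lie inside the annotated gene bodies and are not sequence upstream of the whole gene. CAGACA, the longer form of the SMAD-binding element, was present for Rnf19b, Neurl3, Arid5a and 1 of the 2 RefSeq starts of Tnni1, 4 of 6 genes, against 17.13% of all windows. The letters TTCNNNGAA and TTCNNNNGAA (STAT sites), TGANTCA (AP-1) and the MEF2 consensus were found in 0 of 6 genes on either strand. These letters were looked for in 1 short window per start, and the RefSeq start may not be the one used in these cells.

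The 6 genes started near the same level in both arms and separated at different times. At 0 min the fold (stimulated over untreated) ran from 0.949 to 1.38 across them. Taking as onset the first time from which the lower bound of the counting interval of the fold stayed above 1.5, a limit chosen after the values were seen, Rnf19b separated at 30 min, Spsb1 at 1 h, Tbc1d4, Arid5a and Tnni1 at 2 h and Neurl3 at 6 h. That bound depends on the number of counts. At 2 h the fold was 1.75 for Neurl3, with a lower bound of 1.18, and 1.65 for Tnni1, with a lower bound of 1.51. The stimulated level itself stayed above 2 times its 0 min value from 1 h for Rnf19b and Spsb1, from 6 h for Neurl3 and Tnni1, and only from 24 h for Tbc1d4 and Arid5a. For Tbc1d4 and Arid5a the arms therefore separated many hours before the stimulated level had doubled. In these bulk libraries, fewer cells of a type and less RNA per cell cannot be told apart.

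**Figure D1:**
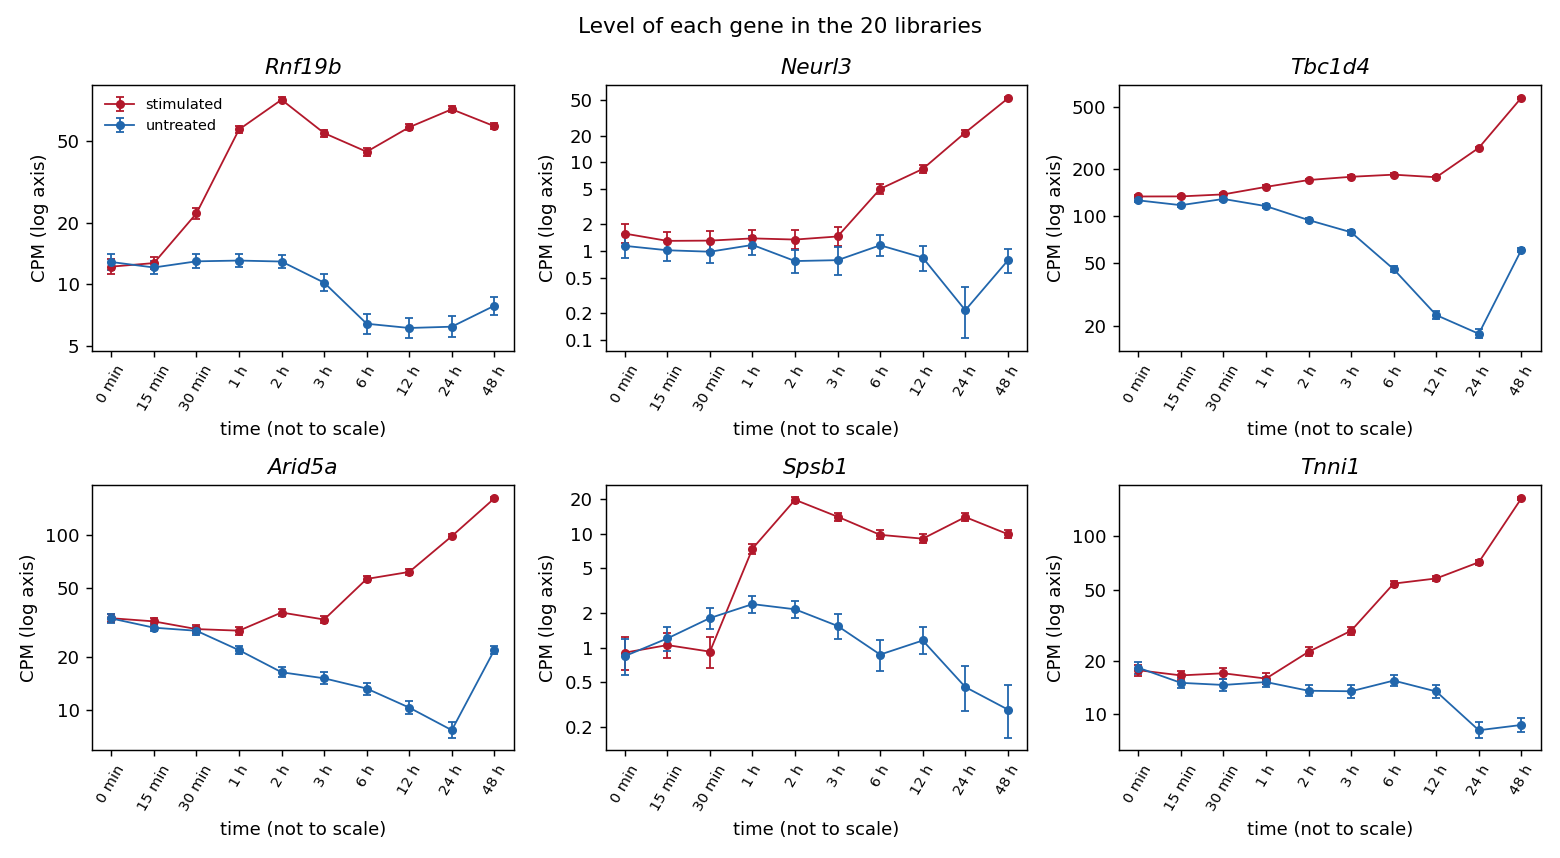
Level of each of the 6 genes in CPM (vertical, log axis) at the 10 times (horizontal, not to scale) in the stimulated (red) and untreated (blue) library of each time, with 95% counting intervals as bars. The red points of Rnf19b and Spsb1 are highest at 2 h, those of the other 4 genes at 48 h, and the blue points of Tbc1d4 and Arid5a are lowest at 24 h and higher at 48 h.

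Rnf19b was the first of the 6 genes to separate. From 0 min to 48 h its level was 12.2, 12.7, 22.2, 57.0, 79.8, 54.8, 44.4, 58.5, 71.6 and 59.2 CPM in stimulated libraries. In untreated libraries it was 12.8, 12.1, 12.9, 13.0, 12.9, 10.2, 6.40, 6.10, 6.19 and 7.84 CPM at the same times. The stimulated level thus reached its top by 2 h and then stayed within a band, while the untreated level was lower from 3 h on, and the arms did not overlap at any time from 30 min. The fold was 1.72 at 30 min (95% interval 1.55 to 1.90, counting error only), 6.18 at 2 h and 11.6 at 24 h. Between 2 h and 24 h the fold nearly doubled although the stimulated level was not higher.

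Spsb1 was nearly silent at the start. Its level from 0 min to 48 h was 0.902, 1.05, 0.920, 7.40, 19.8, 14.1, 9.77, 9.04, 14.0 and 9.90 CPM in stimulated libraries. It was 0.841, 1.202, 1.81, 2.41, 2.17, 1.55, 0.867, 1.15, 0.450 and 0.285 CPM in untreated libraries. The untreated arm varied within 0.285 to 2.41 CPM, with its high values from 30 min to 3 h, and at 30 min the stimulated library was the lower one, at 43 against 89 counts, a fold of 0.507 (0.344 to 0.738). By 2 h the order had turned and the fold was 9.16 (7.61 to 11.1). The log2 ratio of CPM plus 0.5 was 2.93, rank 1 among 11464 genes with a mean of at least 1 CPM. Nothing is read from that rank, since this ratio chose the gene. The fold at 48 h, 34.7 (20.8 to 62.4), rested on 525 stimulated against 15 untreated counts.

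By the onset limit above, Neurl3 was the last to separate, and it then went furthest. Its fold was already 1.75 at 2 h (1.18 to 2.60) and 1.85 at 3 h (1.20 to 2.91), on 69 against 45 and 68 against 32 counts. Its stimulated level from 0 min to 48 h was 1.57, 1.30, 1.31, 1.38, 1.34, 1.45, 4.9993, 8.39, 21.6 and 52.4 CPM. Its untreated level was 1.14, 1.02, 0.979, 1.17, 0.768, 0.786, 1.16, 0.839, 0.214 and 0.780 CPM. The stimulated arm was flat to 3 h and stood higher at each of the 4 later times than at the one before, and the untreated arm stayed near 1 CPM apart from the 24 h library. The fold of 101 at 24 h (54.6 to 211) rested on 10 untreated counts, and the fold at 48 h was 67.2 (49.4 to 93.9). On the scale with the pseudocount of 0.5 CPM, the log2 ratio was 4.95 at 24 h and 5.37 at 48 h, ranks 2 and 5 among the 11464 genes. At 48 h the other chosen genes ranked from 13 (Tnni1) to 45 (Rnf19b). Such ranks are a description, since this ratio chose the genes.

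Tnni1 stood higher at each time from 2 h on than at the time before. Its stimulated level from 0 min to 48 h was 17.7, 16.5, 17.0, 15.8, 22.4, 29.4, 54.0, 57.7, 71.1 and 162.0 CPM. Its untreated level was 18.2, 15.0, 14.6, 15.2, 13.5, 13.5, 15.4, 13.4, 8.14 and 8.71 CPM. The stimulated level was 9.17 times its 0 min value at 48 h, and the untreated level was lower at 24 and 48 h than at any earlier time. The fold was 1.65 at 2 h (1.51 to 1.81), 3.49 at 6 h and 18.6 at 48 h. These were spleen libraries in which 8 of 10 muscle markers, among them Acta1, Myh1, Myh7, Myod1 and Myog, stayed under 1 CPM in all 20 libraries, with the summed level of all 10 at 6.38 to 16.0 CPM in stimulated and 5.76 to 14.7 CPM in untreated libraries.

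Tbc1d4 was the most abundant of the 6 genes per kb of exon in late stimulated libraries, and its untreated level was far lower at 24 h than at the start. Its stimulated level from 0 min to 48 h was 133.5, 133.7, 137.7, 153.7, 170.0, 178.3, 184.0, 177.1, 272.6 and 568.9 CPM. Its untreated level was 126.1, 117.5, 128.7, 115.9, 94.4, 79.0, 45.9, 23.4, 17.8 and 60.9 CPM. At 24 h the untreated level was 7.09 times lower than at 0 min, and at 48 h it stood 3.43 times higher than at 24 h. The fold was 1.80 at 2 h (1.74 to 1.86), 4.01 at 6 h, 15.3 at 24 h (14.3 to 16.5) and 9.34 at 48 h (9.01 to 9.69).

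Arid5a followed much the same course as Tbc1d4. Its stimulated level from 0 min to 48 h was 33.5, 32.1, 29.0, 28.4, 36.1, 32.9, 56.2, 61.6, 98.7 and 162.5 CPM. Its untreated level was 33.4, 29.5, 28.4, 22.0, 16.4, 15.2, 13.2, 10.3, 7.65 and 22.0 CPM. The stimulated level was below its start at 1 h and at 3 h was still level with it, while the untreated level stood at 16.4 CPM at 2 h, against 33.4 CPM at its start. The fold was 2.20 at 2 h (2.03 to 2.38), 12.9 at 24 h (11.6 to 14.4) and 7.39 at 48 h (6.95 to 7.86).

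**Figure D2:**
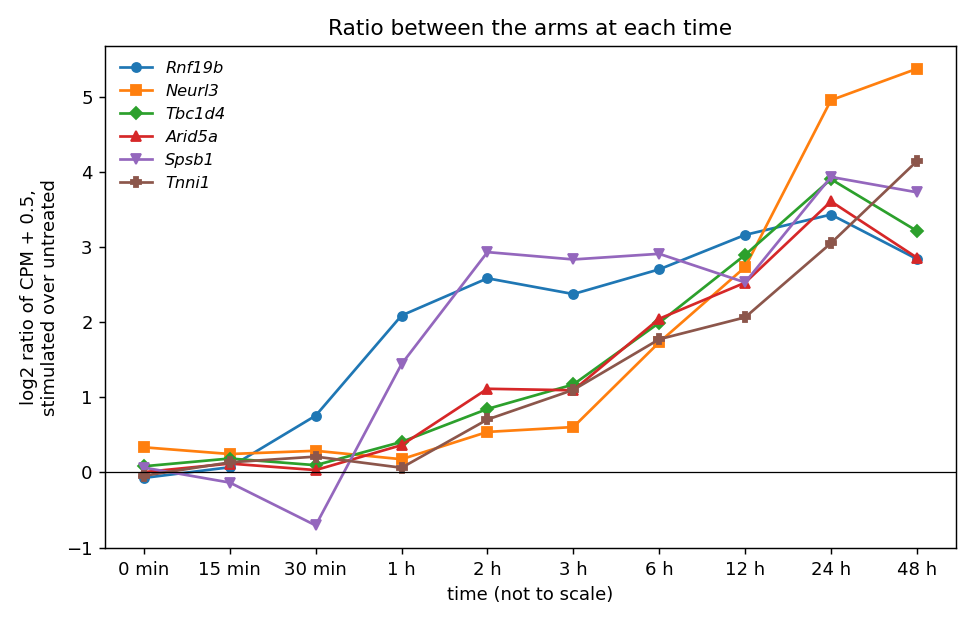
Log2 ratio of CPM plus 0.5, stimulated over untreated (vertical), at the 10 times (horizontal, not to scale), 1 line per gene. All 6 lines start near 0; Rnf19b and Spsb1 are above 2 by 2 h, and Neurl3 and Tnni1 are the lines that are highest at 48 h.

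The label of growing induction was met in part. The log2 ratio was highest at 24 h for Rnf19b, Tbc1d4, Arid5a and Spsb1 and lower again at 48 h, and highest at 48 h for Neurl3 and Tnni1. On the raw fold, with no pseudocount, Spsb1 was highest at 48 h and Neurl3 at 24 h, both against under 1 CPM in untreated libraries. Across the 8 steps between neighbouring times from 15 min to 48 h, the log2 ratio went up in 7 steps for Neurl3 and Tnni1, in 6 for Rnf19b and Tbc1d4, in 5 for Arid5a and in 4 for Spsb1. The stimulated level at 48 h stood below its 2 h level for Rnf19b and Spsb1. Their fold was still higher at 48 h than at 2 h, at 7.55 against 6.18 for Rnf19b and 34.7 against 9.16 for Spsb1. For these genes the ratio thus grew with a lower untreated level, and the stimulated level did not grow after 2 h.

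Splitting the log2 ratio into the change of each arm since its own 0 min library separates the genes further. At 6 h the log2 ratio of Tbc1d4, 1.99, was made of a change of 0.46 in the stimulated arm and of -1.45 in the untreated arm. At 6 h Arid5a, with a log2 ratio of 2.04, had changed by 0.74 in the stimulated and by -1.30 in the untreated arm. On this scale of library totals, the larger part of the ratio at 6 h and at 24 h was the lower untreated level for both genes. The changes at 24 h were 1.03 and -2.79 for Tbc1d4 and 1.55 and -2.06 for Arid5a in stimulated and untreated libraries. The TMM factors of the edgeR fits were lower at 24 h (0.898 stimulated, 0.928 untreated) than at 0 min (1.089 and 1.087). With them the stimulated change at 24 h is larger and the untreated fall smaller. Which arm carried the larger part for Arid5a at 24 h therefore depends on the scaling. At 48 h the order had turned, and the stimulated arm carried the larger part, 2.09 for Tbc1d4 and 2.26 for Arid5a. The other 4 genes had the larger change in the stimulated arm at 6, 24 and 48 h, with Spsb1 at 2.87 in the stimulated and 0.03 in the untreated arm at 6 h, and Neurl3 at 4.68 and -0.36 at 48 h.

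**Figure D3:**
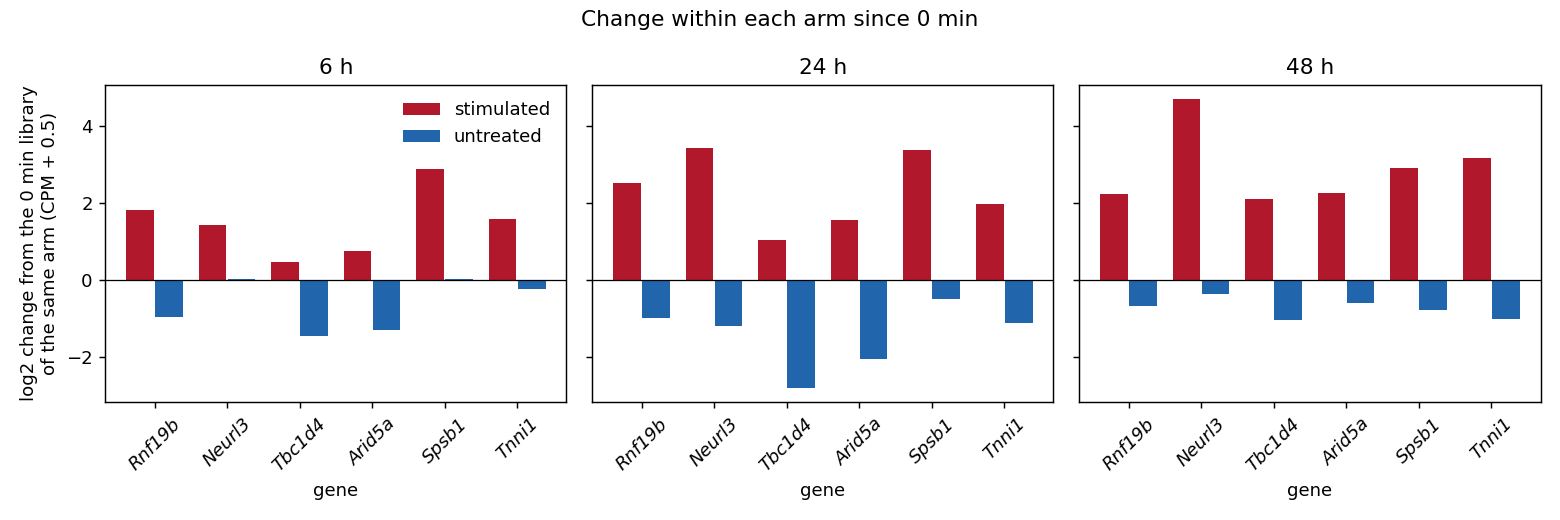
Log2 change of CPM plus 0.5 since the 0 min library of the same arm (vertical) for the 6 genes (horizontal) at 6, 24 and 48 h, stimulated in red and untreated in blue. The blue bars of Tbc1d4 and Arid5a are longer than the red ones at 6 and 24 h, and at 48 h every red bar is the longer one. CPM is on library totals, and the order of the Arid5a bars at 24 h depends on that scaling.

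The untreated level over time is given as a description, since these libraries form the denominator of the ratio that chose the genes. The late phase (12, 24 and 48 h) is set against the early phase (15 min, 30 min and 1 h). Tbc1d4 had 34.0 ± 23.4 CPM in late and 120.7 ± 7.0 CPM in early untreated libraries (SD, n = 3 each), with 3 of 3 late libraries below every early one and a log2 change of -1.74 (edgeR). Arid5a had 13.3 ± 7.6 CPM late and 26.6 ± 4.1 CPM early (SD, n = 3 each), a log2 change of -0.90, with overlap, since the 48 h library stood at 22.0 CPM and the 1 h library at 21.96 CPM. The log2 change was -1.42 for Spsb1, -0.81 for Rnf19b, -0.68 for Neurl3 and -0.45 for Tnni1. Without the 48 h untreated library it was -2.41 for Tbc1d4 and -1.43 for Arid5a. Over all 12139 genes tested in the untreated arm, 42.6% were called (edgeR quasi-likelihood test, Benjamini-Hochberg adjusted p under 0.05) between the late and the early phase and 25.4% between the middle (2, 3 and 6 h) and the early phase, and nothing is read from these shares about the 6 genes.

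In the late phase, which the rule used, the log2 fold change between the arms was 5.30 ± 0.46 for Neurl3, 4.197 ± 0.48 for Spsb1, 3.39 ± 0.22 for Tbc1d4, 3.27 ± 0.30 for Rnf19b, 3.18 ± 0.31 for Tnni1 and 3.07 ± 0.21 for Arid5a (edgeR, SE, n = 3 times). Over all genes 36.1% were called in the late phase, 20.5% in the middle phase and 22.3% over the 9 times after 0 min, and nothing is read from these shares about the 6 genes. Leaving out 1 pair of the late phase, the value for Neurl3 ran between 6.26 without 12 h and 4.72 without 48 h. For Spsb1 it was 5.04 without 12 h and 3.86 without 24 h or 48 h, and for Tnni1 3.71 without 12 h and 2.64 without 48 h. Levels between genes can be set side by side only per length, here as CPM per kb of annotated exon. On that scale the stimulated late level was 44.2 ± 26.6 for Tbc1d4, 26.9 ± 15.8 for Tnni1, 22.0 ± 2.6 for Rnf19b, 8.58 ± 4.07 for Arid5a, 8.54 ± 7.03 for Neurl3 and 2.496 ± 0.60 for Spsb1 (SD, n = 3), against 4.43, 2.80, 2.34, 1.06, 0.190 and 0.143 in untreated libraries for the same genes. The ranges of the 3 stimulated libraries overlapped among Tbc1d4, Tnni1 and Rnf19b and among Arid5a, Neurl3 and Spsb1 where these stand next to each other in that order, and not between Rnf19b and Arid5a. The most abundant gene on this scale was therefore not the one with the largest fold. The length used is the union of all annotated exons, 12.54 kb over 15 transcripts for Arid5a and 2.872 kb over 6 for Rnf19b. If the transcripts present are shorter than that union, the level per kb is too low. The order of Rnf19b and Arid5a thus depends on the annotation.

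Sequencing lane differed between the arms at every time, so lane and treatment cannot be told apart within a pair. Lane is only what the library names give, and nothing else is known of the batches. The 0 min pair was run in the same lanes (2 for stimulated, 1 for untreated) as the 1, 12 and 24 h pairs, and its folds were those near 1 given above. Within lane 2 alone, the stimulated level of Neurl3 was 1.57, 1.38, 8.39 and 21.6 CPM at 0, 1, 12 and 24 h. Within lane 4 it was 1.31, 1.34, 1.45, 4.9993 and 52.4 CPM at 30 min and 2, 3, 6 and 48 h. Within lane 1, the untreated level of Tbc1d4 was 126.1, 117.5, 115.9, 23.4 and 17.8 CPM at 0 and 15 min and 1, 12 and 24 h. Within lane 3 the untreated level of Tbc1d4 was 128.7, 79.0, 45.9 and 60.9 CPM at 30 min and 3, 6 and 48 h. Its rise from 24 to 48 h thus coincides with a change of lane. The part of lane in these values was not tested. With lane and a spline of time replacing the time factor, the late log2 fold change was 4.57 ± 0.78 for Spsb1 and 4.56 ± 1.085 for Neurl3 (SE). It was 2.99 ± 0.41 for Rnf19b, 2.80 ± 0.55 for Tnni1, 2.75 ± 0.53 for Tbc1d4 and 2.60 ± 0.49 for Arid5a. Each SE was larger than with the time factor. Over the 9 times after 0 min, the fit with lane gave lower values for all 6 genes. They were 1.997 ± 1.14 for Spsb1, 1.695 ± 0.64 for Rnf19b and 1.21 ± 1.31 for Neurl3. For Arid5a, Tbc1d4 and Tnni1 they were 0.79 ± 0.71, 0.73 ± 0.77 and 0.66 ± 0.76. With the time factor the 9-time values ran from 1.497 (Tnni1) to 2.66 (Spsb1).

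The genes next to the 6 were not used in choosing them, and their treatment difference was tested over all genes. Of 33 other protein-coding genes with counts within 200 kb of a gene body, 23 passed the filter on low counts. In the late phase 9 of these 23 were called higher in stimulated libraries, 0 lower, and 14 did not pass, against 17.8% of all 12042 genes tested called higher and 18.3% called lower. Their median log2 fold change was 0.23, against -0.00 over all genes. Within 100 kb 7 of 12 were higher and 0 lower, and within 500 kb 15 were higher and 6 lower of 50. With lane and a spline of time the number higher within 200 kb was 2, in a fit that called 221 genes in all in place of 4351, and without the 48 h pair 1 neighbour was called lower.

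The calls were uneven between the places. Beside Tnni1, 4 of 5 neighbours tested were higher, all within 30 kb: Lad1, an anchoring filament protein, by 3.20 ± 0.31 (log2, SE), Phlda3, a repressor of Akt, by 2.51 ± 0.34, Tnnt2, the troponin T of heart muscle, by 2.45 ± 0.19, and the LIM-domain gene Csrp1 by 0.59 ± 0.05 (edgeR adjusted p from 7.6e-06 to 2.3e-04). Tnnt2 had 36.3, 28.6 and 56.9 CPM at 12, 24 and 48 h in stimulated libraries, against 9.44, 5.08 and 8.07 CPM in untreated libraries. Lad1 had 3.75, 3.31 and 8.98 CPM in stimulated libraries, against 0.839, 0.257 and 0.628 CPM in untreated libraries at those times. For both genes the arms did not overlap in the late phase. Tmem9, 197.2 kb away, had a log2 fold change of -0.14 and did not pass.

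Around the other genes the pattern was sparser. Beside Rnf19b, Trim62, S100pbp and Yars did not pass. Beside Spsb1, the orphan receptor gene Gpr157, 132.3 kb away, was higher by 2.22 ± 0.22 (edgeR adjusted p = 2.9e-05), and Pik3cd, Tmem201, Slc25a33 and the nearest gene, H6pd (0.20 ± 0.10), did not pass. Around Neurl3 and Arid5a, Uggt1, a sensor of glycoprotein folding, and Hs6st1, a heparan sulfate sulfotransferase, were higher by 0.32 ± 0.05 and 0.65 ± 0.09. Kansl3, 11.7 kb from Arid5a, had a log2 fold change of -0.02 ± 0.07, and Fer1l5, Lman2l, Cnnm4 and Cnnm3 did not pass either. Beside Tbc1d4, Commd6 and the deubiquitinase gene Uchl3 were higher by 0.31 ± 0.06 and 0.33 ± 0.05, and Lmo7 did not pass.

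**Figure D4:**
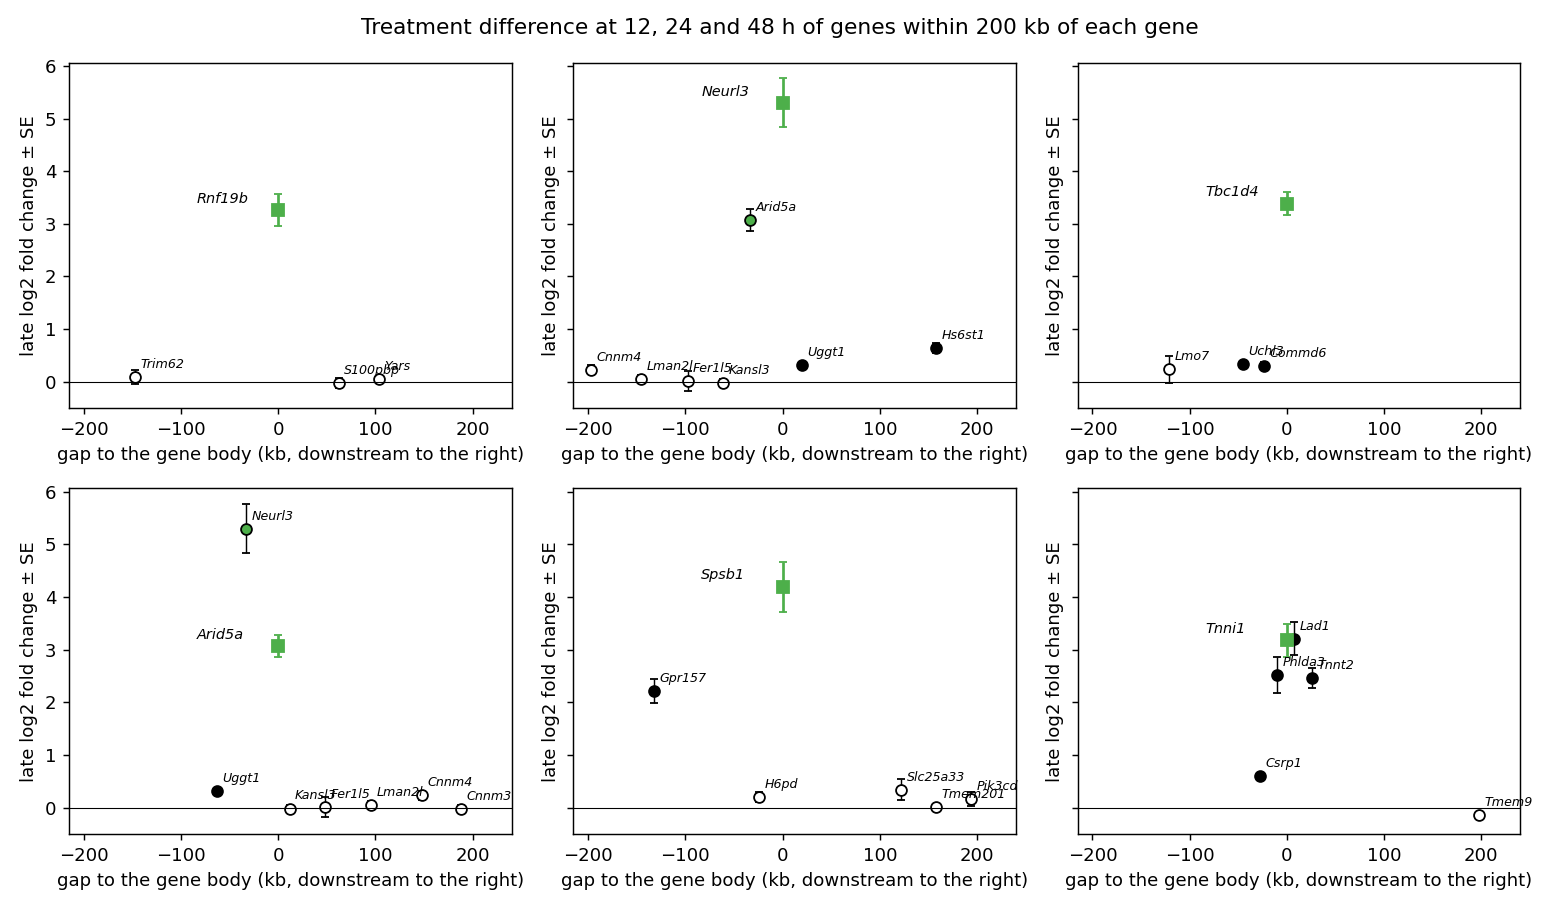
Late-phase log2 fold change, stimulated over untreated, with SE (vertical) of the tested protein-coding genes reported here within 200 kb against the gap in kb to the gene body (horizontal, downstream of the gene to the right), 1 panel per gene. Green squares and circles are the 6 genes, filled black circles neighbours past the threshold and open circles those not past it; the panel of Tnni1 holds 4 filled circles, 3 of them above 2, and in the panels of Neurl3 and Arid5a all neighbours other than these genes are under 1.

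The lists of relatives that follow are read beside the late-phase shares over all genes, 17.8% called higher and 18.3% lower, and nothing particular to a list is read from its counts. Of the 12 closest paralogs of the 6 genes, 1 was called higher in the late phase, 1 lower, 5 did not pass and 5 were under the filter on low counts. Rnf19a, the paralog of Rnf19b, was higher by 0.49 ± 0.06 (log2, SE, edgeR adjusted p = 1.3e-04) in the late phase, with 51.3, 50.5 and 59.7 CPM at 12, 24 and 48 h in stimulated and 41.0, 36.3 and 40.2 CPM in untreated libraries. Tbc1d1, the paralog of Tbc1d4, had a log2 fold change of 0.01 ± 0.05 and did not pass. Arid5b (-0.63 ± 0.26), Spsb2 (0.42 ± 0.17), Spsb3 (0.09 ± 0.08) and Neurl2 (-0.42 ± 0.19) did not pass. Neurl1a, Neurl1b, Neurl4, Spsb4 and Tnni3 were under the filter on low counts, with at most 0.346 CPM in any library. Tnni2, the fast muscle troponin I, was lower by 1.12 on the log2 scale (-1.12 ± 0.11, edgeR adjusted p = 2.4e-05), with 9.76, 11.5 and 15.1 CPM at 12, 24 and 48 h in stimulated and 24.1, 27.0 and 28.5 CPM in untreated libraries. The slow and the fast troponin I genes therefore differed between the arms in opposite directions.

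Among troponin and sarcomere genes, 8 of 20 passed the filter, and in the late phase 4 of these were higher, 3 lower and 1 did not pass (all genes: 17.8% higher, 18.3% lower), with a median log2 fold change of 0.14, against -0.00 over all genes. Beside Tnnt2, the giant muscle protein gene Ttn was higher by 3.14 ± 0.31 (edgeR adjusted p = 2.6e-05), with 8.35, 8.80 and 19.8 CPM at 12, 24 and 48 h in stimulated and 2.01, 0.857 and 1.26 CPM in untreated libraries. Tnnt3, the fast muscle troponin T, was lower (-0.66 ± 0.10). Tpm4 (0.29 ± 0.07) and Des (0.32 ± 0.11) were higher and Tpm1 (-0.44 ± 0.09) was lower, and all 3 are also expressed outside striated muscle. The call of Tpm4 was lost without the 48 h pair, and that of Des without the 24 or 48 h pair and when library totals alone set the scale.

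Of the RBR ligases and their partners, 4 of 11 tested were higher, 2 lower and 5 not past the threshold (16 in the list, median 0.06, all genes 17.8% higher and 18.3% lower). The largest difference was that of the ubiquitin-conjugating gene Ube2l6 at 0.54 ± 0.16, followed by Rnf19a at 0.49 ± 0.06. Rbck1 and Rnf31 of the linear ubiquitin ligase were at -0.21 ± 0.05 and -0.20 ± 0.07. The calls of Ube2l6, Rbck1 and Rnf31 were lost without the 24 h pair, and those of Rnf31 and Ube2l6 also without the 48 h pair. That of Rnf31 was lost under RLE size factors too, and the number lower was 1 with RLE, DESeq2, limma-voom or no filter on low counts. Of the Neuralized family with Notch ligands and receptors, 1 of 7 tested was higher, 0 lower and 6 not past the threshold (12 in the list, median 0.07, all genes 17.8% higher and 18.3% lower). That gene was the ligand Jag2 at 0.43 ± 0.10, a call lost without the 48 h pair.

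Of the Rab and glucose transport partners of Tbc1d4, 3 of 12 tested were higher, 0 lower and 9 not past the threshold (16 in the list, median 0.02, all genes 17.8% higher and 18.3% lower). They were the glucose transporter Slc2a1 at 0.58 ± 0.10, the aminopeptidase Lnpep, a cargo of the same vesicles, at 0.51 ± 0.09, and Rab14 at 0.23 ± 0.06, the last lost without the 12 h pair. Slc2a1 had 86.4, 108.8 and 107.4 CPM at 12, 24 and 48 h in stimulated and 74.9, 71.9 and 61.0 CPM in untreated libraries. Slc2a4, the transporter that Tbc1d4 is best known for, had 0 counts in all 20 libraries, which allows at most 0.0492 to 0.0814 CPM (3 counts of each total).

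Of the other ARID genes, 2 of 12 tested were higher, 4 lower and 6 not past the threshold (13 in the list, median -0.07, all genes 17.8% higher and 18.3% lower). The B cell transcription factor gene Arid3a (Bright) was lower, at -0.67 ± 0.06, and its relative Arid3b at -1.13 ± 0.09 (edgeR adjusted p = 7.6e-06), with 36.0, 38.9 and 36.4 CPM at 12, 24 and 48 h in stimulated and 73.2, 89.4 and 88.6 CPM in untreated libraries. Kdm5b (0.51 ± 0.13) was higher and Jarid2 (-0.29 ± 0.09) lower, calls lost without the 48 h pair for Kdm5b and without the 12 or 24 h pair for Jarid2. Arid4a (0.26 ± 0.07) was higher and Arid1a (-0.26 ± 0.05) lower, the call of Arid4a lost without the 12 or 24 h pair.

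Of the transcripts known to be bound by Arid5a and the RNases that act on such transcripts, 2 of 6 tested were higher, 1 lower and 3 not past the threshold (8 in the list, median 0.05, all genes 17.8% higher and 18.3% lower). Tnfrsf4, the costimulatory receptor OX40, was higher by 3.06 ± 0.51 (edgeR adjusted p = 8.9e-04), with 3.92, 9.43 and 63.3 CPM at 12, 24 and 48 h in stimulated and 1.95, 1.33 and 2.30 CPM in untreated libraries. Its value was 4 without the 12 h pair and 1.96 without the 48 h pair. Stat3, a transcription factor gene, was higher by 0.96 ± 0.07 (edgeR adjusted p = 7.6e-06), with 118.1, 116.7 and 99.8 CPM in stimulated and 65.5, 55.0 and 55.7 CPM in untreated libraries. The RNase gene Zc3h12d was lower at -0.98 ± 0.14, and Zc3h12a, the RNase that Arid5a is known to oppose, was not called (0.04 ± 0.18). Il6 stayed under the filter at 0.0781, 0.0654 and 1.04 CPM in stimulated and 0.168, 0.0857 and 0.152 CPM in untreated libraries at those times, and Tbx21 was under it too.

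Of the partners and substrates of Spsb1, 4 of 10 tested were higher, 0 lower and 6 not past the threshold (12 in the list, median 0.22, all genes 17.8% higher and 18.3% lower). All 4 were subunits or relatives with small differences: Cul5 at 0.24 ± 0.05, the elongin genes Tceb2 at 0.20 ± 0.05 and Tceb1 at 0.17 ± 0.06, and Asb8 at 0.27 ± 0.08. The calls of Tceb1 and Asb8 were lost when library totals alone set the scale and without the 48 h pair, that of Tceb1 also without the 12 h pair. The substrates Nos2 (0.53 ± 0.25) and Tgfbr2 (0.10 ± 0.09) did not pass. Over all 88 tested neighbours and list genes, 38 calls were made in the late phase, of which 0 changed sign under the other scalings. RLE size factors lost the call of Rnf31 and library totals alone those of Ankib1, Tceb1, Asb8 and Des. With lane and a spline of time, 5 stayed past the threshold (Gpr157, Tnnt2, Rnf19a, Arid3b and Tnni2).

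**Figure D5:**
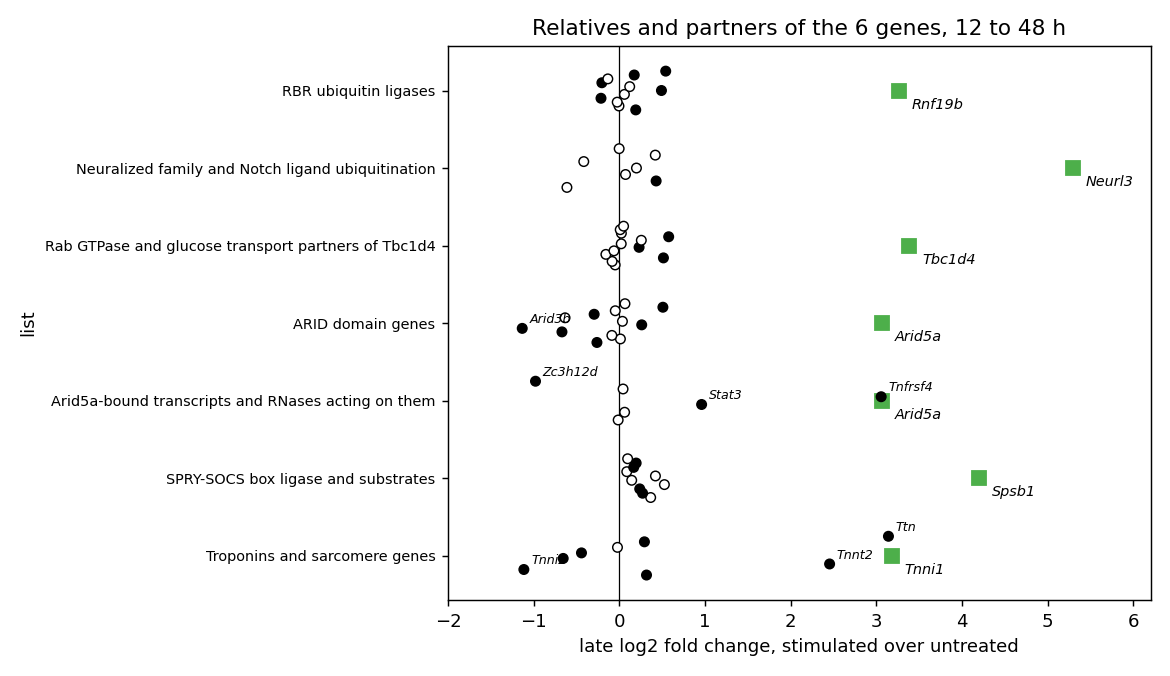
Late-phase log2 fold change, stimulated over untreated (horizontal), of the tested genes in each of 7 lists (vertical), with filled circles past the threshold, open circles not past it and green squares the gene of the 6 that each list was built around. In every list the green square is to the right of nearly all circles, and Tnfrsf4, Ttn and Tnnt2 are the circles beyond 2. The genes of the green squares were chosen by a high ratio and the circles were not, so nothing is read from the places of the squares.

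Genes with a like course differed between the 6. By Pearson's r of log2(CPM + 0.5) over the 20 libraries, among 9111 genes with a mean of at least 5 CPM, Rnf19b was most like Stx11 (r = 0.92), Bcl2a1d, Smim3, Nfkbia and Zfp280b, and Spsb1 most like Smim3 (0.95), Rnf24, Ifngr2, Zfp280b and Fmnl3. Neurl3 was most like Anpep (0.96), Tcf7, Ccr4, Osbpl3 and Icosl, and Tnni1 most like Tcf7 (0.96), Tmem158, Dexi, Anpep and Cstb. Arid5a was most like Cd48 (0.96), Ccnd2, Map2k6, Il9r and Lrrc8c, and Tbc1d4 most like Parm1 (0.96), Lrrc8c, Fam101b, Cd74 and Ccnd2. The top 5 of each pair share members, Smim3 and Zfp280b for Rnf19b and Spsb1, Tcf7 and Anpep for Neurl3 and Tnni1, and Ccnd2 and Lrrc8c for Arid5a and Tbc1d4. Among the 6 themselves r was 0.94 for Rnf19b with Spsb1, 0.96 for Neurl3 with Tnni1 and 0.93 for Tbc1d4 with Arid5a over the 20 libraries, which share their scaling by library total. All 6 were chosen by a lasting difference between the arms, so high r over both arms is partly built in. The pairs also depend on the libraries used. In untreated libraries alone, Rnf19b had r = 0.93 with Tbc1d4 and 0.65 with Spsb1. By the 10 ratios, r was 0.94 for Neurl3 with Tbc1d4 and 0.97 with Tnni1. The neighbours Neurl3 and Arid5a had r = 0.99 over the 10 stimulated and 0.69 over the 10 untreated libraries. Pairs that are not neighbours came near this over the stimulated libraries, with r = 0.97 for Arid5a with Tnni1 and 0.96 for Neurl3 with Tnni1. Judged by the 10 ratios instead, the top 5 shared 1 gene with these lists for Spsb1 and for Tnni1 and 0 for the other 4.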

How the data were processed

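Poly-A RNA was made into TruSeq libraries, 1 per arm and time. The deposited values are counts per gene, made by the authors on GRCm38.p3 (mm10) with HTSeq after STAR alignment, per the submitters' processing notes. Not given in the sources used here are versions, annotation and strand setting. The counts were divided by library totals for CPM, with exact 95% intervals (Poisson for a level, binomial for a fold) that cover counting error only, as does the floor of 3 counts (0.0492 to 0.0814 CPM). A gene was tested if 3 or more libraries reached 1 CPM, with edgeR 4.0.16 (quasi-likelihood, TMM, Benjamini-Hochberg, threshold 0.05) in R 4.3.3. The model held time as a factor, which pairs the arms, and treatment over all 9 times or per phase (18 libraries), or 8 groups of arm and phase (20 libraries). Times stood in for replicates, so p-values measure the spread between times within a phase and not between animals. The SE is the log2 fold change divided by the square root of F. Fits were tested on simulated data. Single times have no test; their log2 ratios use a pseudocount of 0.5 CPM.

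The genes, lists and rules were chosen with earlier results of these data known, and the motifs and onset limits after the values were seen. Named were all 6 genes, tested protein-coding neighbours within 200 kb (1 of them is not reported here and is left out of the counts of neighbours), the closest paralogs, up to 4 called genes per list with the largest late difference, and the 5 genes most like each; further list members (Nos2, Tgfbr2, Il6, Tbx21, Slc2a4, Zc3h12a, Tpm1, Tpm4, Des, Arid4a, Arid1a, Ankib1 and Ube2l3) were picked with their values known. Other settings tried were DESeq2 size factors (RLE), totals alone, DESeq2 1.42.0, limma-voom 3.58.1, other filters, libraries or pairs left out, lane, and a spline of time of 3 degrees of freedom.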

Additional observations from a re-analysis of the deposited data

Results flagged for a closer look

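Of 88 tested neighbours and list genes, all that passed the filter, 28 had a treatment effect that differed between the late and the early phase in a direct test of that difference (edgeR interaction term, adjusted over all genes, adjusted p from 1.8e-04 to 0.044), against 2377 of 12042 genes in all, or 19.7%. The difference, late minus early on the log2 scale, was positive for 19 and negative for 9, and over all genes called for 1230 and 1147. Next to Tnni1 it was 3.043 for Lad1, 2.279 for Tnnt2, 1.779 for Phlda3, 0.4641 for Csrp1 and -0.3008 for Tmem9. Next to the other genes it was 2.011 for Gpr157, 0.6057 for Hs6st1, 0.3249 for Uchl3 and 0.3214 for Uggt1. Among muscle genes it was 3.222 for Ttn, 0.3192 for Tpm4, -1.043 for Tnni2, -0.7371 for Tnnt3 and -0.4782 for Tpm1. Among Arid5a-bound transcripts, RNases and ARID genes it was 3.169 for Tnfrsf4, 1.02 for Stat3, -1.247 for Zc3h12d, -0.8358 for Zc3h12a, -1.087 for Arid3b, -0.6274 for Arid3a and -0.3166 for Arid1a. In the remaining lists it was 0.5148 for Lnpep, 0.4898 for Jag2, 0.3712 for Rnf19a, 0.3144 for Rab14, 0.3114 for Ankib1, 0.2687 for Cul5 and 0.2605 for Ube2l3. The 6 genes are not counted here, since their growth over time chose them. Lane was not in the fit behind these differences, and its part in them was not tested.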

How the results depend on the processing

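Lane could not be fitted as an additive term beside the time factor for treatment, because the design then has rank 12 for 13 columns over the 9 times and 14 for 15 by phase. The late minus early difference of the treatment effect stays estimable in the design by phase, but it was not fitted there with lane. With a spline of time and lane the genes called were 0 over the 9 times (746 at an unadjusted p under 0.05; 2680 with the time factor by edgeR), 29 in the middle phase (2463) and 221 in the late phase (4351), and with the spline alone 1709, 1309 and 2336. Leaving out 1 pair gave 1571 to 2767 over the 9 times (lowest without 6, 12 or 24 h), 899 to 3004 in the middle phase (lowest without 3 or 6 h) and 3056 to 4502 in the late phase. In the untreated arm, leaving out 1 library gave 3417 to 5533 of 5176 late minus early (lowest without 30 min or 24 h) and 1142 to 3127 of 3089 middle minus early (lowest without 15 min, 30 min, 3 h or 6 h). Scaling by library totals alone moved the share of calls that were higher to 27.3% from 47.5% over the 9 times. That share moved to 25.01% from 49.9% in the middle phase and to 40.4% from 49.4% in the late phase. In the untreated arm it moved to 39.1% from 53.0% late minus early and to 42.2% from 53.4% middle minus early. The median of all genes moved by -0.11 log2 in the untreated arm late minus early. A pseudocount of 2 CPM lowered the 48 h log2 ratio of Neurl3 to 4.29 and of Spsb1 to 2.38. The causes were not tested. The treatment fits pair the arms by time. By replicate number, no paired analysis was possible because the libraries bear none in the labels. Depth limited untreated Neurl3 and Spsb1 at 24 and 48 h, with 10 to 41 counts.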
